A study of Drosophila melanogaster with 24 samples.

Results

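Sites in the genome of Drosophila melanogaster embryos that carried the SAGA subunits Ada2b and Sgf11 but no reproducible peak of the subunit Spt3 were described here. They were chosen from chromatin immunoprecipitation and sequencing (ChIP-seq) peak lists. In the lists of Ada2b (4 libraries), Spt3 (3 libraries) and Sgf11 (3 libraries), a peak was kept when it overlapped by 1 bp or more a peak of at least 1 other library of the same factor. Kept peaks of the 3 factors were merged into 6040 sites. Of these, 1010 (16.7%) overlapped a kept Ada2b and a kept Sgf11 peak and no kept Spt3 peak, and are called the Ada2b and Sgf11 sites. The presence of Ada2b, Sgf11 and Spt3 therefore selected the sites and is given as a description, whereas Non-stop, RNA polymerase II (Pol II) and chromosome were not used to choose them.

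SAGA is a transcriptional coactivator assembled from modules. Ada2b belongs to the module that acetylates histones through Gcn5. Sgf11 and Non-stop belong to the module that removes ubiquitin from histone H2B, with Non-stop as its protease, and Spt3 belongs to the SPT module, which in yeast contacts the TATA-binding protein. A site with Ada2b and Sgf11 but without Spt3 would hold both enzymatic modules and lack one part of the complex. Whether such sites exist in these lists, and whether Non-stop and Pol II were found there, is the question these comparisons address.

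The series maps these 4 subunits and Pol II in embryos aged 1 to 3 h, collected at stages 4 to 6, a period that includes the onset of zygotic transcription. Every library came from whole embryos, so nuclei of all embryonic regions are averaged, and the fly strain is not given in the sources used here. Rabbit antibodies were raised to amino acids 1 to 330 of Ada2b, to amino acids 178 to 496 of Non-stop and to full-length Sgf11 and Spt3. Pol II was precipitated with the mouse antibody 4H8, directed to the heptad repeat of its C-terminal domain phosphorylated at serine 5. Libraries are named by their labels, such as 1530_1. Ada2b and Spt3 share the numbers 1530_1, 1530_2 and 1760_2, Ada2b also has 1530_3, Sgf11 has 1377_1, 1377_2 and 1924_2, Non-stop has 1924_1 and 1924_2, and Pol II has 1188_2 and 1632_1. No label says that libraries of a factor came from separate collections of embryos, so a spread between them may be technical.

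The lists differed in length. The Spt3 lists held 2025 (1530_1), 2328 (1530_2) and 6311 peaks (1760_2), and Ada2b lists held 3262 (1530_1), 1878 (1530_2), 1563 (1530_3) and 5446 (1760_2). Sgf11 lists held 4972 to 6787 peaks, Non-stop lists 8558 and 12073, and Pol II lists 11440 and 10569. The lists contain peaks and not reads, so the depth of a library is unknown and a site without a peak may hold signal below the limit of the caller.

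Most of the Ada2b and Sgf11 sites were not free of Spt3 peaks, so the rule cannot be read as absence of Spt3. At 851 of the 1010 sites (84.3%, 95% Wilson interval 81.9 to 86.4%) the Spt3 library 1760_2 had a peak and the other Spt3 libraries had none. A Wilson interval gives the counting error of a share over sites and says nothing of the spread between libraries. Spt3 1530_1 had a peak at 1 site, Spt3 1530_2 at 6 and Spt3 1760_2 at 853 (84.5%). Spt3 1760_2 also had a peak at 79.2% of all 6040 sites and 64.3% of sites with Sgf11 alone, so its share at the Ada2b and Sgf11 sites is near that of the whole set. A peak in none of the 3 Spt3 libraries was found at 152 sites (15.0%, interval 13.0 to 17.4%). At 5 sites Spt3 1530_2 alone had a peak. At the remaining 2 sites a pair of Spt3 libraries had peaks that did not overlap each other, on 2R (chr2R:4794248-4795290, dm3) and 3R (chr3R:5454145-5454733). The sites are therefore described in 2 parts below, 856 with a peak in 1 Spt3 library and 152 with none.

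The peak of Spt3 1760_2 at these sites was of middling strength within its own list. Strength was measured by the fold enrichment at the summit, the ratio of ChIP signal to local background given by the peak caller, and by its percentile among all peaks of that library. Where Spt3 1760_2 had a peak at an Ada2b and Sgf11 site, the median fold enrichment was 2.93, at percentile 53.1 of that list. At canonical sites, which have kept peaks of all 3 factors (1649 sites), the median was 4.45, at percentile 84.5. Among canonical sites the value depended on the number of Spt3 libraries, with a median of 3.64 where 1760_2 and 1 other library had a peak (501 sites) and 4.99 where all 3 had one (1133 sites). The sites with 1760_2 alone lie below both. Their fold enrichment ranged from 1.66 to 5.53, so it overlapped the range of the canonical sites with all 3 libraries, 1.71 to 11.1. The median −log10 q-value fell in the same order, at 17.8, 31.3 and 59.5 for peaks in 1, 2 and 3 Spt3 libraries.

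Each Spt3 library was also held out in turn, and the 2659 sites with kept Ada2b and Sgf11 peaks were sorted by the other Spt3 libraries alone. With 1760_2 held out, it had a peak at 851 of 1003 sites (84.8%, interval 82.5 to 86.9%) where neither other Spt3 library had one. It had a peak at 503 of 508 sites (99.0%) where 1 other did and at 1133 of 1148 (98.7%) where both did. With 1530_1 held out, the shares were 24.0% of 1127 sites where 1 other library had a peak and 82.1% of 1380 where both did. With 1530_2 held out, they were 3.18% of 157 sites with neither other library, 23.5% of 1113 with 1 and 81.6% of 1389 with both. At sites with Ada2b and Sgf11, the long list of 1760_2 thus had a peak at most sites whatever the shorter lists showed, and the shorter lists had a peak at most sites only where both others did.

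The number of Ada2b and Sgf11 sites rested on single libraries. The most common Ada2b pattern was a peak in 1530_1 and 1760_2 and in neither other library, at 642 sites (63.6%), and 234 sites (23.2%) had one in all 4. By library, Ada2b 1530_1, 1530_2, 1530_3 and 1760_2 had a peak at 99.7, 32.8, 26.9 and 99.9% of the sites, against 98.4, 62.8, 54.3 and 99.1% of canonical sites. Without Ada2b 1530_1 there were 368 sites, without Ada2b 1760_2 there were 365, and without Spt3 1760_2 there were 1523, of which 33.6% had a peak in 1 of the remaining Spt3 libraries. Taking Ada2b and Spt3 libraries of the same number as pairs, and asking for Ada2b without Spt3 in at least 2 of 3 pairs, gave 448 sites. Sgf11 was less dependent on single libraries, and all 3 Sgf11 libraries had a peak at 835 sites (82.7%).

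**Figure D1:**
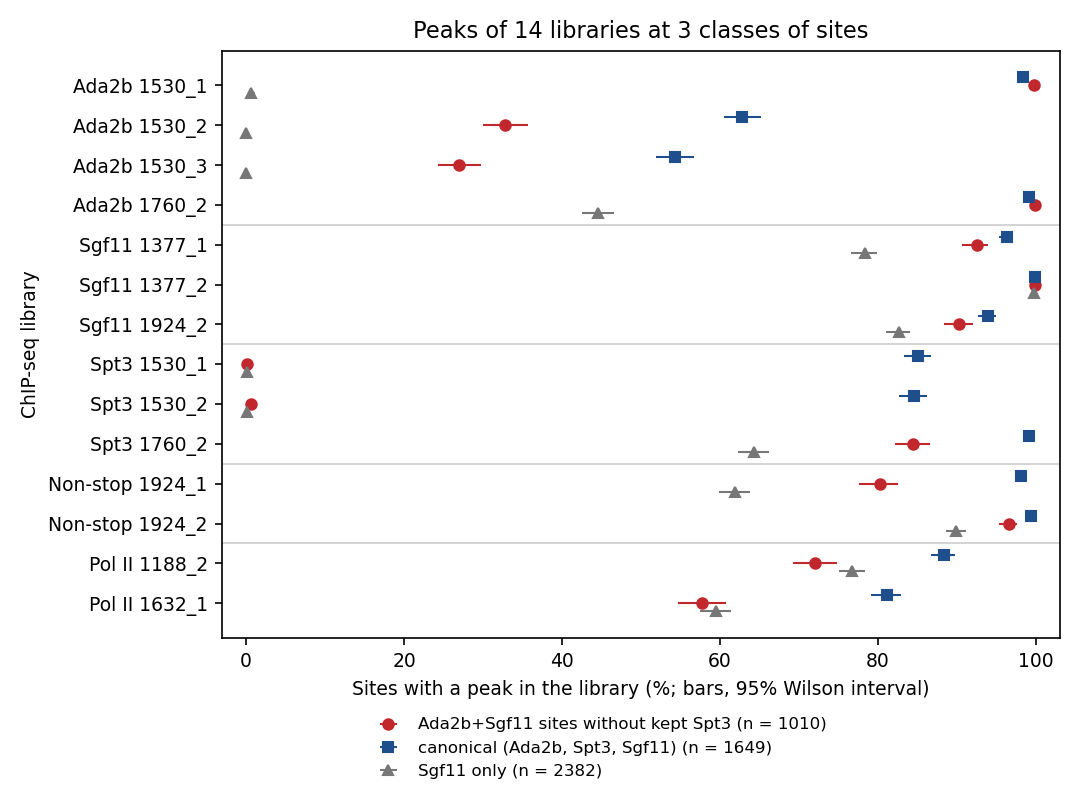
Share of sites with a peak (x axis, percent, with 95% Wilson intervals) in each of the 14 ChIP-seq libraries (y axis), for the 1010 Ada2b and Sgf11 sites, the 1649 canonical sites and the 2382 Sgf11-only sites. Spt3 1760_2 had a peak at 84.5% of the Ada2b and Sgf11 sites, whereas Spt3 1530_1 and 1530_2 had a peak at 0.0990 and 0.594% of them.

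The rule left sites just inside and just outside its limits. The Ada2b and Sgf11 sites closest to a kept Spt3 peak were 45 bp (chr2L:1117870-1118611), 68 bp (chr3R:20056872-20057219) and 86 bp (chr2R:14028614-14029506) from it. Among canonical sites, the smallest overlap of a kept Spt3 peak with a kept Ada2b or Sgf11 peak was 202 bp (chr3L:9361441-9362274), followed by 223 bp (chr3R:18408611-18409097) and 235 bp (chr2R:15713883-15714334). Few sites were thus decided by a few base pairs of overlap. The median distance to the nearest kept Spt3 peak was 14621 bp, and 49 of the 1010 sites (4.85%) lay within 1 kb of one.

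The Ada2b and Sgf11 sites were compact, and the summits of the factors coincided. The median width of a site was 604 bp (interquartile range 498 to 746 bp, extremes 274 and 3066 bp), against 815 bp for canonical sites and 461 bp for sites with kept Sgf11 peaks alone. Taking the strongest peak at a site, the summits of Ada2b 1760_2 and Sgf11 1377_2 lay a median of 23 bp apart (1008 sites), and 89.0% lay within 100 bp. At canonical sites the median was also 23 bp and 85.2% lay within 100 bp. At the 851 sites with a peak in Spt3 1760_2 alone, that summit lay a median of 28 bp from the Ada2b summit and 89.5% lay within 100 bp. The Non-stop 1924_2 summit lay a median of 27 bp from it (975 sites). The single Spt3 peak was thus found at the position of the other subunits and not at the edge of the site.

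**Figure D2:**
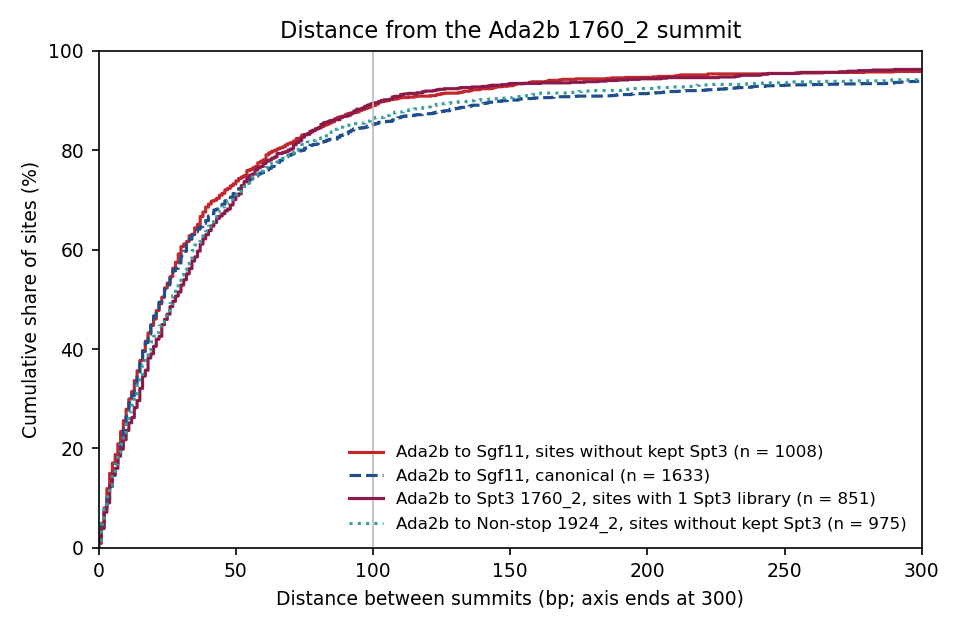
Cumulative share of sites (y axis, percent) by distance from the summit of Ada2b 1760_2 to the summit of another factor (x axis, bp, shown up to 300). The curves for Sgf11, Non-stop and the single Spt3 library lie close together, with medians of 23, 27 and 28 bp at the Ada2b and Sgf11 sites.

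Non-stop, the protease that acts beside Sgf11, was present at most of the Ada2b and Sgf11 sites but at fewer of them than of the canonical sites. Peaks in both Non-stop libraries were found at 808 of 1010 sites (80.0%, interval 77.4 to 82.4%). A further 168 sites (16.6%) had one in 1924_2 alone, 2 in 1924_1 alone, and 32 (3.17%) in neither. Over all 6040 sites 17.1% had 1924_2 alone, 5.84% had neither, and the share with both was 76.1%. At canonical sites it was 97.9%, so the Ada2b and Sgf11 sites were lower by 17.9 percentage points (difference −17.9, 95% Newcombe interval −20.6 to −15.5, which covers counting error over sites only). The libraries differed in this. In 1924_1 the shares were 80.2 and 98.1%, against 77.0% of all sites, and in 1924_2 they were 96.6 and 99.4%, against 93.3% of all sites, a difference of −2.76 points (−4.09 to −1.69). Both libraries gave the same sign, and an exact two-sided sign-flip permutation over 2 libraries gave p = 0.5, the smallest it can give.

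Against sites with Spt3 and Sgf11 but no kept Ada2b (384 sites, 91.4% with both Non-stop libraries), the Ada2b and Sgf11 sites were lower by 11.4 points (difference −11.4, interval −14.9 to −7.41). This difference was −7.00 without Spt3 1530_2. Without Spt3 1760_2 it was −6.65 with an interval of −11.1 to 1.03, which includes 0. Against sites with Sgf11 alone (2382 sites, 60.4%) they were higher by 19.6 points (16.4 to 22.7), with 18.4 points in 1924_1 and 6.71 points in 1924_2. The last comparison was 13.0 points without Sgf11 1377_2. It reversed to −4.97 with the same number of strongest peaks taken from every Ada2b, Spt3 and Sgf11 library, and was 2.19, with an interval that included 0, with the upper 50% of each list. Among sites whose Sgf11 1377_2 peak was in the upper 25% of that list, 90.3% of 351 Ada2b and Sgf11 sites and 96.2% of 313 Sgf11-only sites had Non-stop, whereas below percentile 50 the shares were 69.1% of 282 and 48.3% of 1239. These strata were chosen after the data had been seen.

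Where Non-stop had a peak at the Ada2b and Sgf11 sites, it was weaker than at canonical sites. The median fold enrichment was 4.28 in 1924_1 (810 sites) and 5.54 in 1924_2 (976 sites), against 6.45 and 8.24 at canonical sites. It was 4.22 and 5.60 at sites with Spt3 and Sgf11 but no kept Ada2b, and 3.37 and 4.35 at Sgf11-only sites. Sgf11 itself was also weaker than at canonical sites, with a median of 7.86 in 1377_2 against 11.3, 5.01 against 7.16 in 1377_1, and 6.44 against 10.3 in 1924_2. In 1377_2 it was 5.42 at the Spt3 and Sgf11 sites and 4.65 at Sgf11-only sites, lower than at the Ada2b and Sgf11 sites. Ada2b differed less from canonical sites, with 3.80 against 4.07 in 1760_2, 2.83 against 3.16 in 1530_1, 2.83 against 3.06 in 1530_2 and 2.84 against 3.07 in 1530_3. The strength of Ada2b and Sgf11 helped to decide which sites were kept, so these values are descriptions, and their part in the Non-stop share was tested no further than in the strata given here.

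Pol II, the enzyme whose initiation SAGA assists, was found at fewer of the Ada2b and Sgf11 sites than of the canonical sites. Both Pol II libraries had a peak at 582 of 1010 sites (57.6%, interval 54.6 to 60.6%), 1188_2 alone at 146 (14.5%), 1632_1 alone at 1 and neither at 281 (27.8%). Over all 6040 sites 13.1% had 1188_2 alone and 20.3% had neither. The share with both was 65.8% of all 6040 sites and 80.4% of canonical sites. The difference from canonical sites was −22.7 points (−26.3 to −19.1), and it was larger than the counting error in each library. In 1188_2 the shares were 72.1 and 88.3%, against 79.0% of all sites, a difference of −16.2 points. In 1632_1 they were 57.7 and 81.1%, against 66.5% of all sites, a difference of −23.4 points. With 2 libraries the exact two-sided sign-flip permutation p was again 0.5, its smallest value. The difference from canonical sites was −37.4 points with Ada2b and Spt3 libraries paired by number, and −15.1 without Spt3 1760_2.

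The Ada2b and Sgf11 sites were also lower than sites with Spt3 and Sgf11 but no kept Ada2b, where 79.4% had Pol II in both libraries (difference −21.8 points, interval −26.6 to −16.5). This difference was −7.36 without Spt3 1530_2 and −33.6 with libraries paired by number. Without Spt3 1760_2 it was −10.1 with an interval of −18.2 to 0.078, which includes 0. Against Sgf11-only sites (59.4%) the difference was −1.78 points (−5.42 to 1.83) for both libraries and −4.66 (−7.95 to −1.47) in 1188_2. It changed sign without Spt3 1760_2 (3.39) or Spt3 1530_2 (2.31) and was −0.21 without Spt3 1530_1. It was more negative without Ada2b 1530_1 (−7.21), Ada2b 1760_2 (−7.68), Sgf11 1377_1 (−4.34), Sgf11 1377_2 (−8.96) or Sgf11 1924_2 (−4.81), and −17.5 with libraries paired by number. The near-equal shares joined opposite differences at weak and strong Sgf11 peaks. Below percentile 50 of Sgf11 1377_2, Pol II was found at 66.0% of the Ada2b and Sgf11 sites and at 52.0% of the Sgf11-only sites. In the upper 25% it was found at 53.6 and 83.7%.

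The Pol II peaks at the Ada2b and Sgf11 sites were also narrower and weaker than at canonical sites, though not than at Sgf11-only sites. In 1188_2 the Pol II peak had a median width of 2250 bp and a median fold enrichment of 7.96 (728 sites), against 3642 bp and 9.70 at canonical sites. In 1632_1 the medians were 712 bp and 3.53 (583 sites), against 1503 bp and 5.70. At Sgf11-only sites they were 1844 bp and 7.75 in 1188_2, and 615 bp and 3.33 in 1632_1. Of the Ada2b and Sgf11 sites with a 1188_2 peak, 43.8% (40.3 to 47.4%) lay wholly inside it, and 49.9% of canonical sites did. Pol II and Non-stop peaks in both libraries occurred together at 502 of the 1010 sites (49.7%), against 56.2% of all 6040 sites. A peak in none of these 4 libraries was found at 25 sites (2.48%), against 3.66% of all sites.

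The sites with no Spt3 peak in any library differed from those with 1 Spt3 library, and mostly in Pol II. Pol II had a peak in both libraries at 30 of the 152 sites without Spt3 (19.7%, interval 14.2 to 26.8%) and at 550 of the 856 with 1 Spt3 library (64.3%, 61.0 to 67.4%), a difference of 44.5 points (36.8 to 50.9). The difference was 51.5 points in 1188_2 and 44.6 points in 1632_1, so both libraries gave the same sign (exact sign-flip permutation p = 0.5, its smallest value). Neither Pol II library had a peak at 109 of the 152 sites (71.7%), against 20.3% of all 6040 sites. Since 851 of the 856 have 1760_2 as their Spt3 library, the presence of Spt3 and the content of that one long list cannot be told apart. The difference was 27.3 points without Ada2b 1530_1, 26.9 without Ada2b 1760_2 and 22.3 without Spt3 1760_2. Its interval included 0 at sites with all 4 Ada2b libraries (15.7, interval −5.34 to 32.5) and where a peak in every library was required of each factor (3.51, −23.9 to 28.7), which left 24 and 11 sites without Spt3.

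Non-stop was found in both libraries at 81 of the 152 sites without Spt3 (53.3%, interval 45.4 to 61.0%) and at 725 of the 856 with 1 Spt3 library (84.7%), a difference of 31.4 points (23.2 to 39.6). It was 30.1 points in 1924_1 and 16.2 points in 1924_2. Of the 32 Ada2b and Sgf11 sites without any Non-stop peak, 24 were among the 152 (15.8% of these, against 5.84% of all 6040 sites). Of the 25 sites with no peak of Non-stop or Pol II, 21 were among the 152 (13.8%, against 3.66% of all 6040 sites). This difference depended on how many Ada2b libraries had a peak. At sites with 2 Ada2b libraries, Non-stop was found at 44.8% of 116 sites without Spt3 and 84.1% of 527 with 1 Spt3 library, and at sites with all 4 it was found at 95.8% of 24 and 86.2% of 210. The difference was no longer beyond counting error without Ada2b 1530_1 (4.99, interval −5.57 to 20.9), without Ada2b 1760_2 (5.16, −5.40 to 21.1), at sites with all 4 Ada2b libraries (−9.64, −16.0 to 6.93) or where a peak in every library was required of each factor (−11.3, −16.6 to 14.8). Without Spt3 1760_2 it was 16.4.

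**Figure D3:**
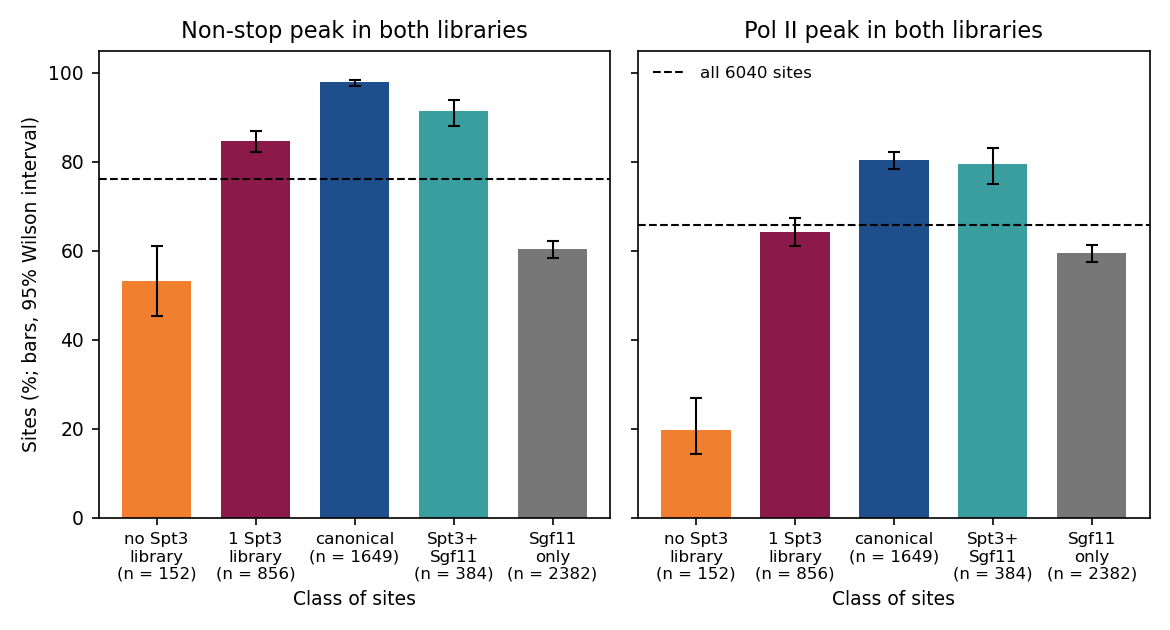
Share of sites (y axis, percent, with 95% Wilson intervals) with a Non-stop peak in both libraries (left) and a Pol II peak in both libraries (right), for Ada2b and Sgf11 sites without Spt3 or with 1 Spt3 library and for 3 other classes of sites. The dashed line is the share of all 6040 sites, 76.1 and 65.8%. Pol II was found at 19.7% of the sites without Spt3, the lowest of the 5 classes shown.

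The sites without Spt3 had somewhat weaker Ada2b and Sgf11 peaks. The median fold enrichment of Ada2b 1760_2 was 3.38 at the 152 sites and 3.87 at sites with 1 Spt3 library, that of Sgf11 1377_2 was 6.26 and 8.18, and Sgf11 1924_2 had a peak at 74.3 and 93.2% of them. The median width was 527 and 618 bp. Ada2b 1530_2 and 1530_3 went the other way where they had a peak, with medians of 3.28 (33 sites) and 3.99 (27 sites) without Spt3 and 2.78 (298 sites) and 2.82 (245 sites) with 1 Spt3 library. Pol II shares were therefore also given within strata of strength, which were chosen after the data had been seen.

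Pol II shares were compared at sites without Spt3, with 1 Spt3 library and canonical. Among these 3 classes, the share was lowest without Spt3 and highest at canonical sites in each of 3 broad strata of Ada2b or Sgf11 strength. The strata are wide, so strength may still differ within them. Below percentile 50 of Ada2b 1760_2, Pol II was found in both libraries at 25.0% of 32 sites without Spt3, 80.6% of 155 with 1 Spt3 library and 93.4% of 256 canonical sites. Between percentiles 50 and 75 the shares were 22.5% of 71, 71.9% of 278 and 88.3% of 513. In the upper 25% they were 12.2% of 49, 53.1% of 422 and 72.8% of 865. By the strength of Sgf11 1377_2, the shares in the upper 25% were 17.6% of 17, 55.3% of 333 and 76.3% of 932. Sgf11-only sites, not part of this ranking, had 83.7% of 313 there, above canonical sites. Between percentiles 50 and 75 and below 50 of Sgf11 1377_2 they had 61.5 and 52.0%, against 82.8 and 88.9% of canonical sites. In both Ada2b and Sgf11 strata, the shares at sites with 1 Spt3 library and at canonical sites were lower where the subunit was more strongly enriched.

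**Figure D4:**
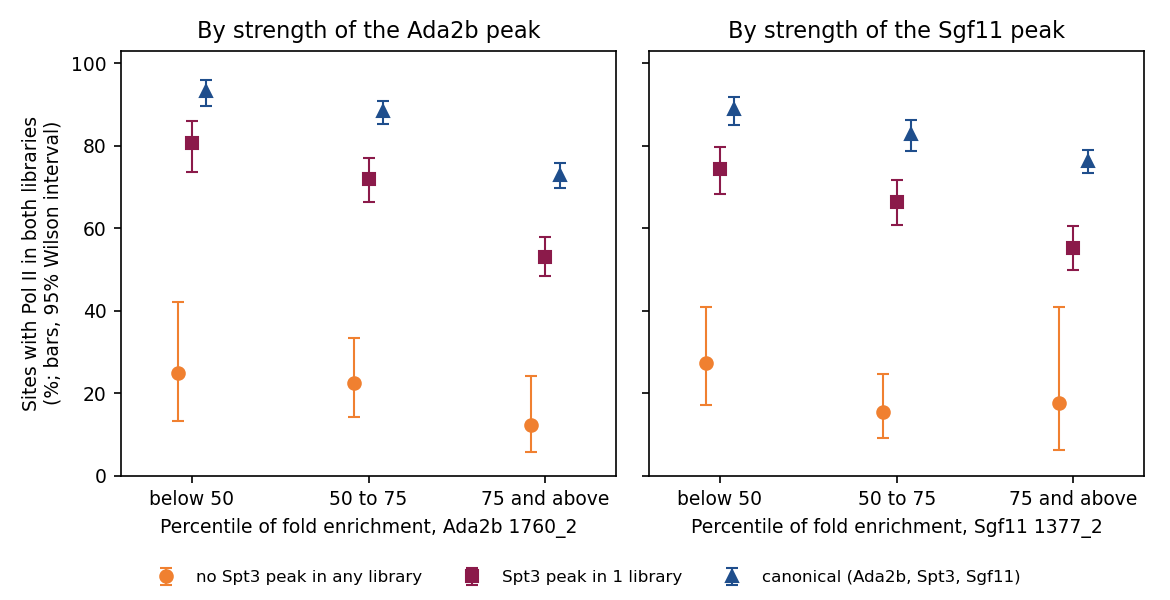
Share of sites with Pol II in both libraries (y axis, percent, with 95% Wilson intervals) by percentile of fold enrichment of Ada2b 1760_2 (left) and Sgf11 1377_2 (right), for sites without Spt3, with 1 Spt3 library and canonical. In the upper 25% of Ada2b the 3 shares were 12.2, 53.1 and 72.8%.

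The shares also differed with the number of Ada2b libraries. Pol II was found at 60.8% of 645 Ada2b and Sgf11 sites with 2 Ada2b libraries, 60.3% of 131 with 3 and 47.4% of 234 with all 4. At canonical sites the shares were 84.7, 88.7 and 74.7%, also lowest with all 4. Non-stop was found at 77.1, 81.7 and 87.2% of the Ada2b and Sgf11 sites. The share of these sites without any Spt3 peak was 18.0, 9.16 and 10.3%. Within the sites with 1 Spt3 library, Pol II was found at 70.2, 64.7 and 49.0% and Non-stop at 84.1, 84.9 and 86.2%. Within the sites without Spt3, Pol II was found at 17.2% of 116 (interval 11.4 to 25.1%), 16.7% of 12 (4.70 to 44.8%) and 33.3% of 24 (18.0 to 53.3%). The lower Pol II share with all 4 Ada2b libraries was thus seen at sites with 1 Spt3 library. Sites without Spt3 were too few to tell, since their intervals overlap. Non-stop differed little at sites with 1 Spt3 library.

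Sites without Spt3 lay farther from Pol II. The median gap from these 152 sites to the nearest Pol II 1188_2 peak was 3757 bp, 57 of them (37.5%) lay within 1 kb of one and 89 (58.6%) within 5 kb. An overlap was found at 43 of the 152. Of the 856 sites with 1 Spt3 library, 709 (82.8%) lay within 1 kb and 683 overlapped one, as did 1456 of the 1649 canonical sites. Among sites that overlapped no 1188_2 peak, the shares within 1, 5 and 20 kb were similar without Spt3 and with 1 Spt3 library. For Pol II 1632_1 the median gap of the 152 sites was 5609 bp. A kept Spt3 peak lay within 1 kb of 5.92% of them and of 4.67% of the sites with 1 Spt3 library.

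**Figure D5:**
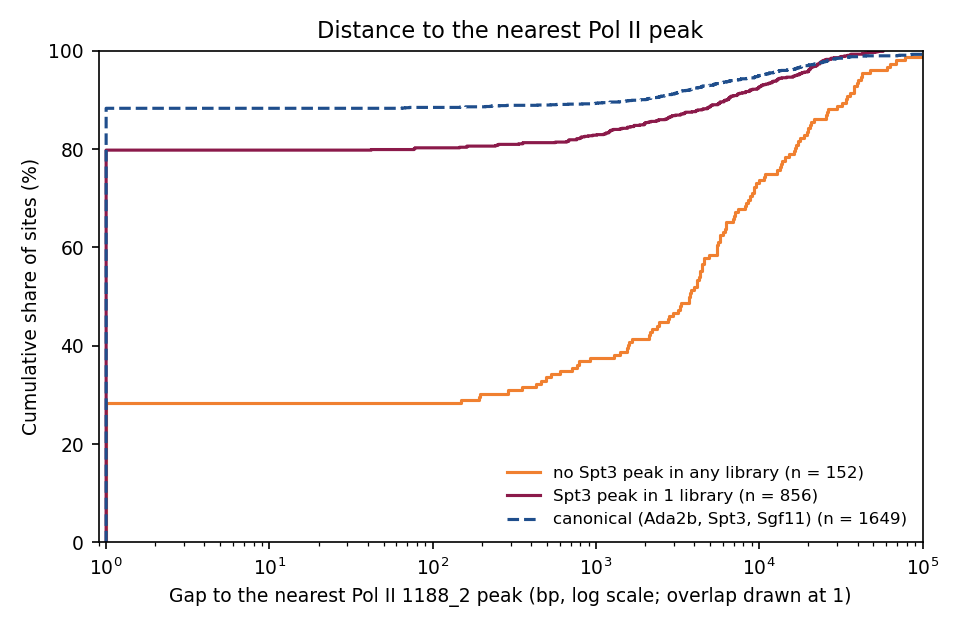
Cumulative share of sites (y axis, percent) by the gap to the nearest Pol II 1188_2 peak (x axis, bp, log scale, with overlapping sites drawn at 1). The curve of the 152 sites without Spt3 starts at 28.3% and reaches 37.5% at 1 kb, whereas the curves of sites with 1 Spt3 library and of canonical sites start at 79.8 and 88.3%.

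The Ada2b and Sgf11 sites were spread over all chromosome arms, with a share on X near that of all sites and above that of canonical sites. Of the 996 on the main arms, 166 lay on 2L, 184 on 2R, 208 on 3L, 235 on 3R, 8 on 4 and 195 on X. A further 14 of the 1010 (1.39%) lay elsewhere, against 4.09% of all 6040 sites. X held 19.6% of them (Wilson interval 17.2 to 22.2%), and the share of all sites, 17.6%, lies within this interval. Canonical sites had 12.6% on X, so the Ada2b and Sgf11 sites were higher by 6.94 points (4.02 to 9.95). Sgf11-only sites had 22.8% on X. The difference from canonical sites was 4.16 points without Spt3 1760_2. Its interval included 0 with Spt3 absent from every library (2.76, interval −2.83 to 9.93), with set 1530 alone for Ada2b and Spt3 (3.47, −0.30 to 7.35) and with the upper 50% of each list (4.07, −0.27 to 8.42). The 152 sites without Spt3 had 17.9% on X. Chromosome 4, which is small and largely heterochromatic, held 0.803% of the Ada2b and Sgf11 sites (8 sites) and 2.99% of canonical sites (47 sites). It held 1.69% of all sites, between these shares. Over the large arms, the share with Pol II in both libraries ranged from 54.2% on 2L to 61.5% on X, whereas over all sites it was 70.0% on 2L and 63.1% on X. The share with Non-stop ranged from 75.3% on 3R to 85.5% on 2L, against 76.6 and 77.1% of all sites on these arms.

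The most reproducible sites without Spt3 had a peak in all 4 Ada2b and all 3 Sgf11 libraries and in no Spt3 library. There were 11 such sites, 7 of them on the arms from which sites were named (2L, 3L, 3R, 4 and X). Ranked by mean percentile of fold enrichment over the 7 libraries, the first was chr3L:14205146-14205865. Ada2b was enriched there 4.30, 4.21, 3.48 and 4.58-fold in 1530_1, 1530_2, 1530_3 and 1760_2, and Sgf11 7.66, 12.0 and 11.6-fold in 1377_1, 1377_2 and 1924_2. Non-stop was enriched 6.79 and 6.95-fold, and Pol II 2.23 and 1.70-fold in peaks 686 and 265 bp wide. Every Ada2b and Sgf11 value lay above the median of its list, which the ranking by these libraries favours. Both Non-stop values, not used in the ranking, also lay above the median of their list, and both Pol II values lay below it.

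The second, chr3L:16923462-16924089, had Ada2b at 4.10, 2.36, 2.94 and 5.76-fold and Sgf11 at 8.33, 12.8 and 11.8-fold. Non-stop was at 6.11 and 7.10-fold, and neither Pol II library had a peak. The third, chr3R:2956402-2957012, had Ada2b at 3.76, 4.98, 5.24 and 3.87-fold and Sgf11 at 3.87, 6.09 and 6.32-fold. It had Non-stop at 11.9 and 10.3-fold, above the median of canonical sites in both libraries, and again no Pol II peak. These 2 sites thus carried Non-stop above the medians of the Ada2b and Sgf11 sites (4.28 and 5.54-fold) without a Pol II peak. At the first of these 2, chr3L:16923462-16924089, Non-stop was below the canonical medians of 6.45 and 8.24-fold.

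The fourth, chr3R:4493720-4495471, was 1752 bp wide and had Ada2b at 4.23, 5.29, 4.82 and 3.06-fold, a mean of 4.35 ± 0.96 (SD, n = 4 libraries). Non-stop was at 10.6 and 9.06-fold, and Pol II at 7.64 and 3.17-fold in peaks of 548 and 461 bp. The fifth, chr4:739211-739684, had Ada2b at a mean of 3.77 ± 0.76 and Sgf11 at 4.36 ± 0.72 (SD, n = 3). Non-stop was at 6.35 and 4.70-fold. The sixth, chr2L:16787538-16787983, had Ada2b at 3.43 ± 0.66 and Sgf11 at 4.73 ± 1.53, with Non-stop at 7.30 and 8.43-fold. Neither of the last 2 had a Pol II peak, so 4 of these 6 sites lacked one and all 6 had both Non-stop peaks.

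Among sites with 1 Spt3 library, the Spt3 peak was strongest for its list at chrX:13306865-13307470. Spt3 1760_2 was enriched there 5.53-fold, at percentile 92.7. Ada2b was called in 1530_1 and 1760_2 alone, at 3.15 and 4.78-fold, and Sgf11 was at 7.72, 11.1 and 12.8-fold. Non-stop was at 9.06 and 10.1-fold, and Pol II at 7.03 and 1.96-fold. The next, chr3R:17497185-17497910, had Spt3 at 5.12-fold, percentile 90.5, with all 4 Ada2b libraries (4.17 ± 1.22) and Sgf11 at 11.4, 16.3 and 18.1-fold. Its Pol II peaks were 5775 and 4960 bp wide. At chr2L:15057587-15058192 Spt3 was at 5.11-fold, percentile 90.4, and Pol II was called in 1188_2 alone. These 3 sites were chosen by the percentile of the single Spt3 peak, so its strength above the canonical median of 4.45 reflects the choice. By the same choice the other Spt3 libraries had no peak there. The median of Spt3 1760_2 over all Ada2b and Sgf11 sites where it had a peak was 2.93.

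Among sites without any Non-stop peak, the first by mean percentile of Ada2b and Sgf11, chr3R:18984958-18985489, had Ada2b at 5.07, 4.08, 4.11 and 6.36-fold and Sgf11 at 5.04, 8.27 and 4.80-fold, with Spt3 1760_2 at 2.73-fold. The second, chrX:5422614-5423056, had Ada2b at 3.28, 3.32 and 3.74-fold in 1530_1, 1530_2 and 1760_2, and Sgf11 at 7.76 and 10.2-fold in 1377_1 and 1377_2. The third, chrX:17591602-17592220, had Ada2b at 3.06 and 4.15-fold in 1530_1 and 1760_2, and Sgf11 at 6.32, 11.6 and 6.32-fold. Ada2b lay above the median of its list wherever it was called at these 3 sites, which the choice by percentile favours. Sgf11 1924_2 was below its median at the first and had no peak at the second. None of the 3 had a Pol II peak, which was also so at 25 of the 32 Ada2b and Sgf11 sites without Non-stop. Over all sites it was so at 221 of the 353 without Non-stop.

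Of the 152 sites without Spt3, 19 (12.5%) had both Non-stop and both Pol II libraries, against 56.2% of all 6040 sites. Outside the sites named above, the strongest was chrX:11457538-11458307, with Ada2b at 3.81 ± 1.15 (SD, n = 4), Non-stop at 11.7 and 9.08-fold and Pol II at 12.7 and 2.07-fold in peaks of 10376 and 1448 bp. The next were chr3L:5959869-5960492, where Pol II was at 10.2 and 3.73-fold in peaks of 9490 and 6732 bp, and chr2L:21683173-21684075, where it was at 8.03 and 3.95-fold in peaks of 426 and 369 bp. Sites without a called Spt3 peak thus included some under broad Pol II domains. The widest of all the Ada2b and Sgf11 sites, chrX:9578189-9581254 (3066 bp), also lay under broad Pol II, with peaks of 11485 and 9996 bp, and had Spt3 1760_2 at 3.28-fold.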

How the data were processed

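ChIP-seq peak lists of 14 libraries were used. The 10 total chromatin samples were not analysed here. Per the methods and labels, reads of 50 bp were processed with CASAVA 1.8.2, aligned to dm3 with bowtie and called with MACS2 at default settings, each library on its own. The control for peak calling is not given in the sources used here. The deposited lists give for each peak the authors' fold enrichment, a ratio to background at the summit, a −log10 q-value and a summit. No list held overlapping peaks and no pair was identical.

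The lists were read on all chromosomes with Python 3.11.15 and NumPy 2.4.6, and coordinates are 1-based. Overlap and merging were checked against bedtools 2.31.1 and tested on simulated data, intervals against SciPy 1.17.1, and figures drawn with matplotlib 3.10.9. Sites, comparisons and named sites were chosen with earlier results of these data known. Shares carry 95% Wilson intervals and differences Newcombe intervals, and libraries were compared by exact sign-flip permutation. Sites are not replicates, so no test was run over them. Sites on 2L, 3L, 3R, 4 and X were named by rule. By mean fold percentile over their Ada2b and Sgf11 libraries these were the first 6 with all 4 Ada2b, all 3 Sgf11 and no Spt3 libraries, the first 3 without Non-stop, and the first 3 others with Non-stop and Pol II but no Spt3. The 3 with the highest percentile in a single Spt3 library and the widest site were added. Sites at the edge of the rule and the 2 with a pair of Spt3 libraries were named after their values were seen.

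Ada2b and Spt3 libraries of the same number deviated together over 6040 sites (correlations of 0.176, 0.302 and 0.404, against −0.356 to 0.109 for other numbers). The numbers were therefore taken to pair them, which is an assumption. The highest value is that of 1760_2, the longest list of both factors, and the part of list length was not tested. The main rule does not use the pairing. Alternatives varied the rule for kept peaks, the strength and width of peaks, the overlap, the libraries and the pairing. No genome or annotation of dm3 was used, so sites carry no gene names.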

Additional observations from a re-analysis of the deposited data

Results flagged for a closer look

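Among the 4 Ada2b libraries, 1760_2 stood apart in the strength of its peaks. At the Ada2b and Sgf11 sites its median fold enrichment was 3.80, against 2.83, 2.83 and 2.84 in 1530_1, 1530_2 and 1530_3, and its median percentile was 73.4, against 52.3, 51.6 and 51.6. At canonical sites its median fold enrichment was 4.07, against 3.06 to 3.16 in the others, and its median percentile was 76.8, against 58.7 to 61.1. In each case the gap to the nearest library exceeded Dixon's 95% critical value. Of 21 quantities examined over these libraries 4 did so. Chance gives about 1 in 20 for a single independent quantity, which cannot be applied here. The 4 are fold and its percentile at 2 sets of sites, the sites were chosen with these same Ada2b peaks, and each library's median is over its own sites (1007, 331, 272 and 1009 of the Ada2b and Sgf11 sites). Its list is also the longest of the 4, with 5446 peaks. Whether the longer list accounts for the higher percentiles was not tested.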

How the results depend on the processing

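Of 267 values under alternatives for 11 results, 155 stayed within the main 95% interval (counts, within 1.5 times), 108 moved beyond it and 4 reversed, in which the cause was not tested. The study's methods ask for 3 Ada2b libraries for a kept peak, here called the study's rule. However, its reported counts of Sgf11-only (2382) and Ada2b-only sites (267) equal those of the main rule here. The number of sites was 365 by the study's rule, 357 with a peak in every library and 152 with Spt3 absent from every library. It was 610 with the upper 50% of each list, 312 with 1563 peaks per library and 605 with set 1530 alone for Ada2b and Spt3. It was 448 with the replicate block, and 365 to 1523 leaving out a library. The share with a single Spt3 library was 90.1, 54.3, 69.3, 37.8, 39.5 and 65.8% in that order (the third of these settings leaves no such site), 81.7% with peaks of 200 bp, and 33.6 to 90.2% leaving out a library. Asking for a peak in every library also widens what counts as without Spt3. A site missing from a single Spt3 library then qualifies, and 11 of the 357 sites had no Spt3 peak at all.

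Non-stop against canonical sites was −13.1 (study's rule), −6.36 (every library), −40.1 (Spt3 absent), −9.60 (upper 50%), −6.01 (1563 peaks), −7.90 (set 1530), −24.1 (replicate block), −2.76 (1924_2 alone), −26.2 and −8.94 (weak and strong Sgf11), −11.8 (all 4 Ada2b) and −17.9 to −13.1 leaving out a library. Against Spt3 and Sgf11 sites it was −5.75 (every library), −26.3 (Spt3 absent), −6.03 (1563 peaks), −3.11 (1924_2 alone) and −12.0 to −6.65 leaving out a library. Against Sgf11-only sites it was 13.6 (every library), 2.19 (upper 50%), −4.97 (1563 peaks), 13.9 (replicate block), 6.71 (1924_2 alone), −5.85 (strong Sgf11) and 13.0 to 21.7 leaving out a library. With a single Spt3 library against none it was 5.16 (study's rule), −11.3 (every library), 8.72 (1563 peaks), 13.3 (set 1530), 16.2 (1924_2 alone), 19.7 and 51.6 (weak and strong Sgf11), 45.9 (weak Ada2b), −9.64 (all 4 Ada2b) and 4.99 to 33.2 leaving out a library.

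Pol II against canonical sites was −55.1 (Spt3 absent), −17.5 (upper 50%), −17.6 (set 1530), −37.4 (replicate block), −16.2 (1188_2 alone), −27.2 (all 4 Ada2b) and −26.0 to −15.1 leaving out a library. Against Spt3 and Sgf11 sites it was −30.6 (study's rule), −32.5 (every library), −56.7 (Spt3 absent), −30.9 (upper 50%), −44.0 (1563 peaks), −27.3 (200 bp), −33.6 (replicate block) and −30.7 to −7.36 leaving out a library. Against Sgf11-only sites it was −7.64 (study's rule), −13.8 (every library), −10.1 (Spt3 absent), −20.9 (upper 50%), −37.7 (1563 peaks), −17.5 (replicate block), 14.0 and −30.1 (weak and strong Sgf11) and −8.96 to 3.39 leaving out a library. With a single Spt3 library against none it was 26.9 (study's rule), 3.51 (every library), 25.5 (upper 50%), 17.8 (1563 peaks), 22.7 (set 1530), 33.6 (replicate block), 51.5 (1188_2 alone), 55.6 (weak Ada2b), 15.7 (all 4 Ada2b) and 22.3 to 47.9 leaving out a library. The X difference was 2.76 (Spt3 absent), 3.47 (set 1530) and 4.16 to 7.63 leaving out a library. Intervals of the values that lost their call are given with the results, except that of 5.16 by the study's rule (−5.40 to 21.1). The settings by strength and by all 4 Ada2b libraries were chosen after seeing the data. Weak means below percentile 50 and strong the upper 25%. Peak lists hold no reads, so a call near the limit of the caller and absence cannot be told apart.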
